A study of Homo sapiens with 16 samples.

Results

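These are 450 intervals of the human genome at which CUT&Tag signal for both CTCF and eGFP-YAP was at least 2 times higher in sorbitol-treated than in vehicle-treated HEK293 cells. They were taken from the 73975 intervals on chromosomes 1 to 22 and X outside the YAP1 gene, out of 74404 intervals in the deposited count table. Counts were scaled to a library total of 1000000 over these intervals (CPM), and the sorbitol-to-vehicle ratio was taken between group means after adding 0.5 CPM to each. A member had a ratio of 2 or more for CTCF and for eGFP-YAP, with 40 or more counts summed over the 4 libraries of each target. Of the 18665 intervals past both count minimums, 2470 (13.2%) had a CTCF ratio of 2 or more, 564 (3.02%) had an eGFP-YAP ratio of 2 or more, and 450 (2.41%) had both. The members were thus selected on their CTCF and eGFP-YAP values, which are described here without a test. RAD21 and H3K27ac were not used in the choice.

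HEK293 is an established human embryonic kidney cell line, and the cells carried an eGFP-YAP genotype, a fusion of green fluorescent protein to the transcriptional co-activator YAP. Cells received vehicle or 200 mM sorbitol, which draws water out of cells, for 1 h; the series' design text names that time for CTCF and RAD21 and describes a serum starvation of 1 h before sorbitol in eGFP-YAP cells. CUT&Tag cuts and tags DNA next to an antibody in bead-bound nuclei, and the 16 libraries were 2 with vehicle and 2 with sorbitol for each of CTCF, RAD21, H3K27ac and eGFP-YAP (through a GFP antibody). Whether replicates came from separate cultures is not stated, so every p-value measures only the spread between these libraries. Libraries made with an irrelevant antibody were not analysed here.

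CTCF is a zinc-finger protein that binds a long DNA motif and halts cohesin, the ring complex that extrudes chromatin loops, so that CTCF and the cohesin subunit RAD21 are usually found together at loop anchors. YAP binds no DNA itself and is brought to enhancers and promoters mainly by TEAD factors when Hippo signalling is low. Acetylation of histone H3 at lysine 27 (H3K27ac) marks active promoters and enhancers.

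The members fell into 6 groups by sequence and place, which were defined after the data were seen. In the hg38 genome, 101 members (22.4%) lay in single-copy sequence within 1 kb of a GENCODE transcription start site, and 82 (18.2%) lay in single-copy sequence elsewhere. Another 27 (6%) overlapped the 3 RefSeq 45S ribosomal RNA genes of chromosome 21, 56 (12.4%) held at least 30 GGAAT units per kb, 44 (9.78%) aligned to the mitochondrial genome, and 140 (31.1%) were other multi-copy sequence. Of these 140, 13 were tied to ribosomal DNA: 9 shared at least 50% of their 31-base words with the 45S rRNA genes, 5 of them at chr21:8248992-8260914, and 4 had fewer such words but lay in the same 10-kb-linked loci as 45S members. Multi-copy meant that at least 50% of the interval's sampled 31-base words occurred in 2 or more places. How reads that fit several copies were placed is not given in the sources used here, so neighbouring copies may share reads and are not independent.

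These groups took very unequal shares of the intervals that could have qualified. All 27 intervals at the 45S rRNA genes that passed both count minimums were members (100%), as were 56 of 60 GGAAT-rich intervals (93.3%) and 44 of 68 mitochondrial-like intervals (64.7%). The share was 140 of 2009 (6.97%) for other multi-copy sequence, 82 of 3352 (2.45%) for single-copy sequence away from start sites, and 101 of 13149 (0.768%) for single-copy start sites.

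**Figure D1:**
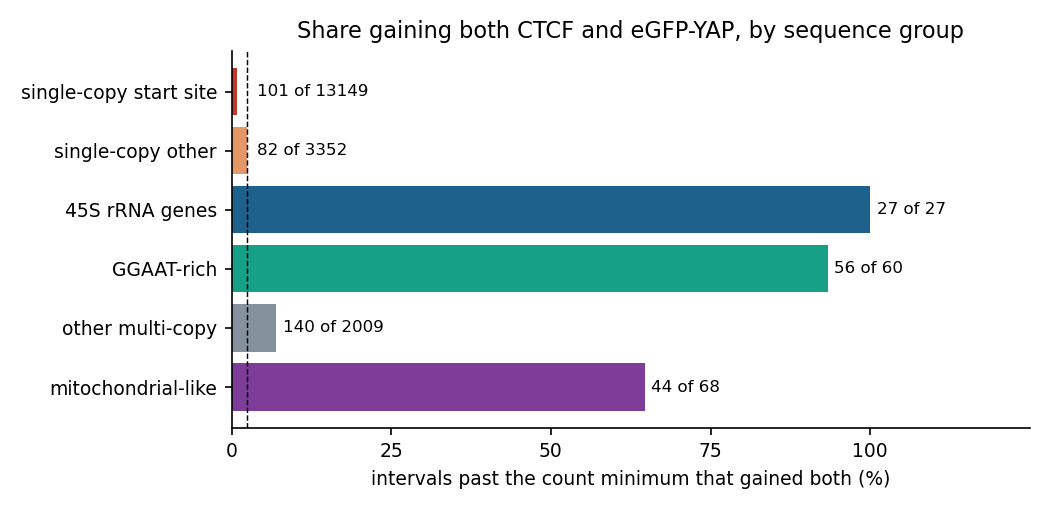
The plot of group shares gives, for the 6 sequence and place groups, the percentage of intervals past both count minimums that were members, as bars starting at 0, with a dashed line at the 2.41% of all such intervals. The 45S rRNA genes are at 100%, the GGAAT-rich group at 93.3% and single-copy start sites at 0.768%.

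The following stretches show the kinds of DNA that the members hold. The EGR1, MARCKSL1 and HEXIM1 promoters are the 250 bases before the RefSeq start (GRCh38) at start sites covered by members, at chr5:138465229-138465478 on the plus strand, chr1:32336234-32336483 on the minus strand and chr17:45148225-45148474 on the plus strand. They were picked after their values were seen, as a gene with serum response elements, a start site rich in GC boxes and the start site with the largest H3K27ac fall. Capitals mark the 2 matches to the serum response element, the binding site of SRF, in EGR1, and GC boxes (GGGCGG, either strand) in the other two. Of 35116 RefSeq promoters, 1.16% held a serum response element in these 250 bases and 42.6% held a GC box.
EGR1: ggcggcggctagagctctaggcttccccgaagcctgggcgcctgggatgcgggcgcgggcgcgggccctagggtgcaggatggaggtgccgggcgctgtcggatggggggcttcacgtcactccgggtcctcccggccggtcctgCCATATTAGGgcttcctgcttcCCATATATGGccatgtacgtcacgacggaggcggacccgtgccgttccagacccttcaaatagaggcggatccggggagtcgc
MARCKSL1: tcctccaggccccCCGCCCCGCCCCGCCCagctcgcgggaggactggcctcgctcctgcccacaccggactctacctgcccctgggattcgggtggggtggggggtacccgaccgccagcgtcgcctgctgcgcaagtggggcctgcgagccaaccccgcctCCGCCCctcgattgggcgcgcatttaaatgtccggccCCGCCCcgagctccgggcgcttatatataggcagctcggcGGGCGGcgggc
HEXIM1: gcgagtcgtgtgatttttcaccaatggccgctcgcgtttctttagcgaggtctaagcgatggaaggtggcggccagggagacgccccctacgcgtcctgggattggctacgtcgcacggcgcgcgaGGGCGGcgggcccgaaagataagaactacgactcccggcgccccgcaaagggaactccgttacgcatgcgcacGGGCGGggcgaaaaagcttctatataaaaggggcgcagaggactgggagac
The repeated sequences are read from hg38, plus strand. The 45S rRNA gene stretch is chr21:8389480-8389599, with 3 GC boxes in capitals, and lies in a member of 2852 bp that holds 14. The GGAAT-rich stretch is chr4:49139686-49139805, with 20 copies of GGAAT in capitals (read as ATTCC on this strand) of the 46 in its 339-bp member.
45S rRNA gene: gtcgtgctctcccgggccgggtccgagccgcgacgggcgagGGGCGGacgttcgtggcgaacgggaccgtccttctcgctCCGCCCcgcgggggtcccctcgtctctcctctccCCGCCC
GGAAT-rich: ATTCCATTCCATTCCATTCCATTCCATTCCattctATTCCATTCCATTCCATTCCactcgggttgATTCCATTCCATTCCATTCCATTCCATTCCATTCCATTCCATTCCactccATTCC
The last pair sets a nuclear stretch, chr1:630891-631010, above the mitochondrial genome at chrM:5721-5840, with the 2 mismatched bases in capitals. The stretch is part of a wider member that is named here for the pseudogene MTCO1P12. The member's whole alignment ran over 699 bases with 5 mismatches (99.3% identity).
Nuclear stretch: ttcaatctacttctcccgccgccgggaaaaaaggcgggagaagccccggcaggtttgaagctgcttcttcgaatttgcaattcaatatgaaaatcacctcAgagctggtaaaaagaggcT
Mitochondrial genome: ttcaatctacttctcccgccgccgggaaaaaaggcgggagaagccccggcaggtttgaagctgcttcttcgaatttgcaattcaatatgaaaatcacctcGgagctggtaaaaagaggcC

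Over the 450 members the CTCF ratio ran from 2.02 to 72.0 with a median of 4.51, and the eGFP-YAP ratio ran from 2.00 to 36.4 with a median of 2.74. The CTCF ratio was the larger of the pair in 377 members. Both ratios were 3 or more in 154 members, 5 or more in 35 and 10 or more in 8, and all 8 were single-copy. The RAD21 ratio, which the choice did not use, ran from 0.120 to 57.7 with a median of 2.36, and the H3K27ac ratio from 0.183 to 5.78 with a median of 1.27.

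**Figure D2:**
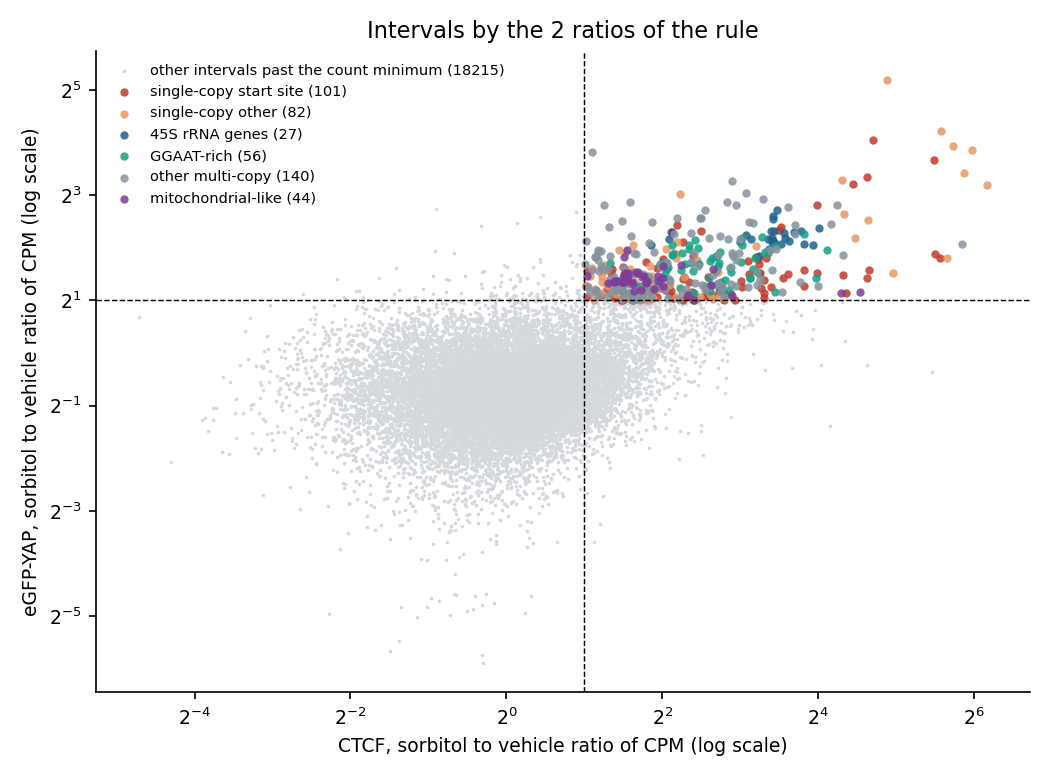
The scatter of the 2 ratios that chose the members plots, for each interval past both count minimums, the sorbitol-to-vehicle CTCF ratio (x, log scale) against the eGFP-YAP ratio (y, log scale), with members coloured by group, other intervals in grey and dashed lines at a ratio of 2. Members reach 72.0 on the CTCF axis and 36.4 on the eGFP-YAP axis, and most lie where the CTCF ratio is the larger.

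Just inside the threshold lay SPANXA2-OT1, CDKN1C and an interval near ENSG00000286697, each with an eGFP-YAP ratio of 2.00. Just outside lay a PEPD interval with ratios of 3.39 for CTCF and 1.999 for eGFP-YAP, one near MDGA1 at 1.997 and 2.60, and one in MARK2 at 1.997 and 3.29.

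The members with the largest smaller ratio of the pair sat on GADD45B, EGR1, TUBB4B, SNAI1 and FAM166A, and all 8 of the largest lay in the transcribed gene or past its end. GADD45B is a stress-induced regulator of growth arrest and EGR1 an immediate early transcription factor. At EGR1, an interval over coding sequence (5:138466651-138467537) had CTCF values of 3.04 and 4.44 CPM with vehicle and 187 and 217 CPM with sorbitol. Its eGFP-YAP values were 4.59 and 9.68 CPM with vehicle and 174 and 111 CPM with sorbitol. RAD21 stood at 4.47 and 3.32 CPM with vehicle against 95.9 and 102 CPM with sorbitol. Both sorbitol libraries were above both vehicle libraries for all 3 proteins, and the RAD21 difference was a log2 fold change of 4.79 ± 0.444 (SE; edgeR quasi-likelihood test, adjusted p = 0.000137). H3K27ac in that interval was 4.71 and 3.15 CPM with vehicle and 3.14 and 5.27 CPM with sorbitol, so the groups overlapped (adjusted p = 0.936). The member that covers the EGR1 start site had smaller ratios, 2.82 for CTCF and 3.11 for eGFP-YAP. There RAD21 rose by 1.93 on the log2 scale (edgeR adjusted p = 0.00164) and H3K27ac fell by 1.34 (adjusted p = 1.93e-15).

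GADD45B held 3 members. From 0.13 to 1.34 kb past the start of the canonical transcript (19:2476257-2477466), CTCF was 12.4 and 13.3 CPM with vehicle and 327 and 366 CPM with sorbitol, and eGFP-YAP was 20.9 and 21.2 CPM against 422 and 289 CPM. RAD21 was 25.3 and 16.6 CPM with vehicle and 327 and 392 CPM with sorbitol, a log2 rise of 4.27 ± 0.323 (SE; edgeR adjusted p = 0.000127). H3K27ac moved the other way, from 27.8 and 26.1 CPM to 8.37 and 6.19 CPM, a log2 fold change of -2.02 ± 0.191 (edgeR adjusted p = 1.34e-10). The interval past the gene's end (19:2479311-2479529) had the highest eGFP-YAP ratio of all members, 36.4, with 0.510 and 0.605 CPM against 47.3 and 28.8 CPM. That ratio rested on few reads, 59 eGFP-YAP counts over the 4 libraries. Both vehicle values were below the 1.53 and 1.82 CPM of 3 counts and near the 0.5 CPM added. The interval over the start of the canonical transcript was not a member, with ratios of 4.93 for CTCF and 1.92 for eGFP-YAP, while the member described first covers another annotated GADD45B start site.

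TUBB4B, which encodes a beta-tubulin of microtubules, and its downstream neighbour FAM166A held 5 members within 4188 bp of chromosome 9. Their CTCF ratios were 24.7, 62.7, 53.3, 72.0 and 58.5 from the start of TUBB4B onwards, and their eGFP-YAP ratios were 10.1, 14.4, 15.3, 9.17 and 10.7. The interval over the start of the canonical TUBB4B transcript had a CTCF ratio of 2.57 and an eGFP-YAP ratio of 0.679 and was not a member. RAD21 rose in all 5 (adjusted p of 0.000375 or less in each), with log2 fold changes of 4.15 to 6.46. The largest, at 9:137242783-137243077, rested on 1 count in the vehicle libraries and 57 in the sorbitol libraries, a CPM ratio of 97.6 with an exact 95% interval of 16.8 to 3921 that covers counting error only. H3K27ac passed the test as lower in 3 of the 5, by 1.20 to 1.94 on the log2 scale.

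SNAI1 encodes a transcriptional repressor of epithelial genes. At its second member (20:49983825-49984321), CTCF was 1.66 and 1.62 CPM with vehicle and 97.8 and 92.0 CPM with sorbitol, and eGFP-YAP was 4.59 and 7.87 CPM against 99.5 and 69.7 CPM. RAD21 rose by 2.72 on the log2 scale (edgeR adjusted p = 0.0067) and H3K27ac fell by 1.70 (adjusted p = 0.0143). In the member over the SNAI1 start site both ratios were under 5, at 4.30 and 4.94. The LINGO3 start site, among the 5 largest RAD21 rises, had ratios of 45.2 for CTCF and 3.67 for eGFP-YAP. Its RAD21 counts were 2 with vehicle and 34 with sorbitol, a CPM ratio of 29.1 with an exact 95% interval of 7.46 to 250.

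**Figure D3:**
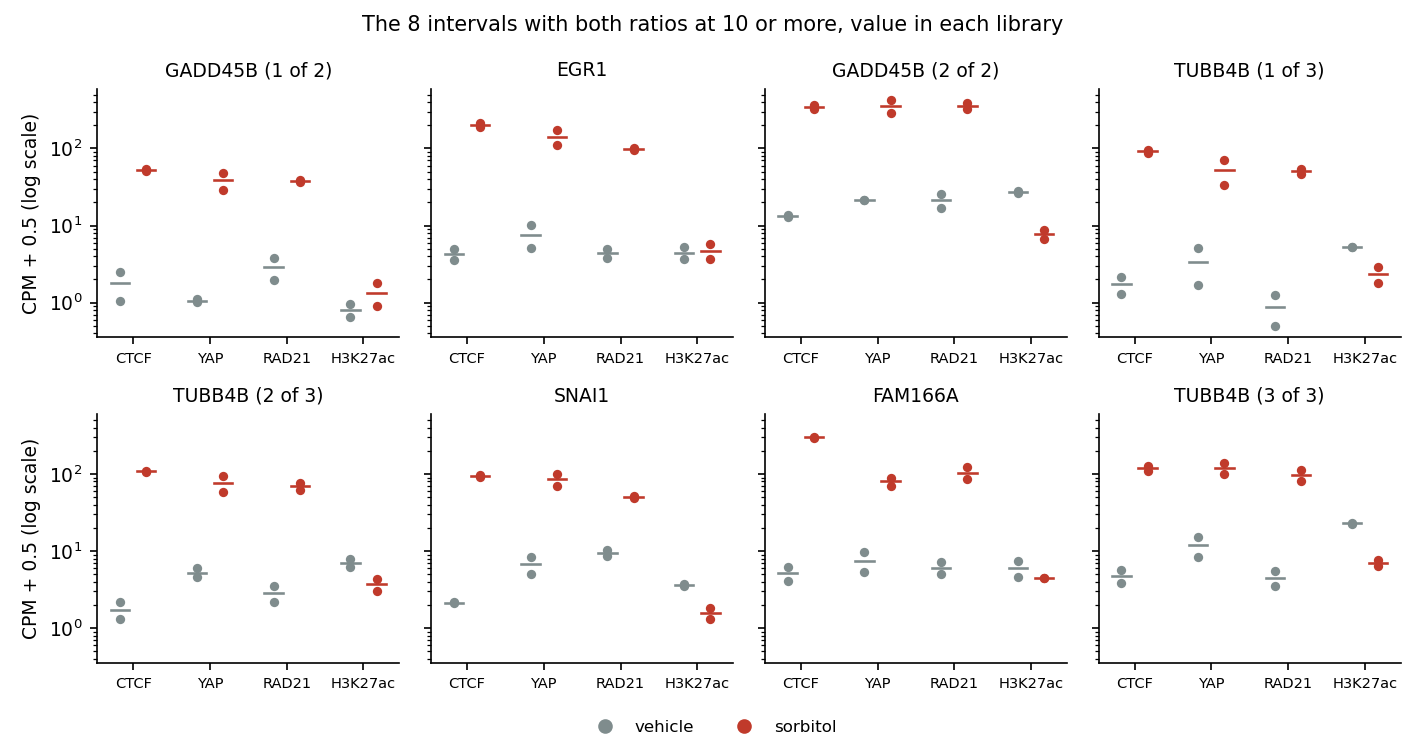
The plot of the members with the largest smaller ratio shows CPM plus 0.5 (log axis) for the 4 targets in the 8 intervals with both ratios at 10 or more, with a point per library, grey for vehicle and red for sorbitol, and a line at the group mean. For CTCF, eGFP-YAP and RAD21 the sorbitol points lie above the vehicle points, as at EGR1 with 95.9 and 102 CPM of RAD21 against 4.47 and 3.32 CPM.

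**Figure D4:**
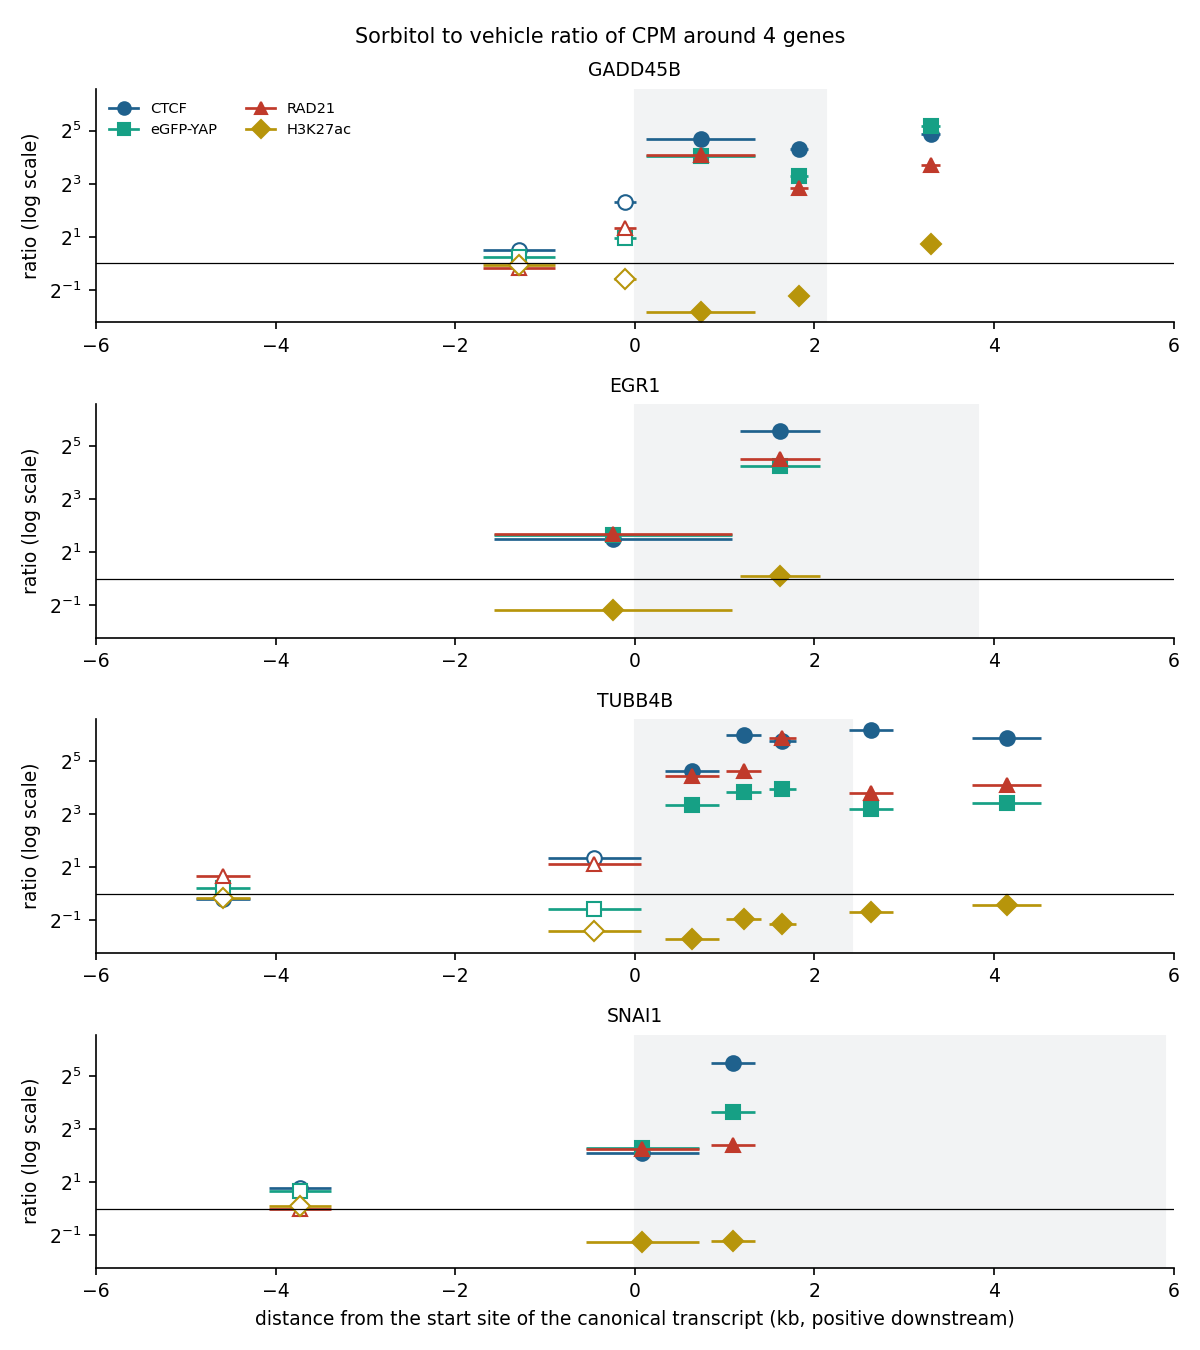
The profile of ratios along GADD45B, EGR1, TUBB4B and SNAI1 plots the sorbitol-to-vehicle ratio (log axis) of each interval against its distance in kb from the start site, for the 4 targets. Filled symbols are members and open symbols are not, horizontal lines span each interval, and shading marks the gene. At TUBB4B the CTCF ratio is 2.57 over the start site and 24.7 to 72.0 downstream.

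RAD21 rose with sorbitol at members of all 6 groups, from 27 of 27 tested at the 45S rRNA genes to 5 of 44 in the mitochondrial-like group. Of the 450 members, 361 had enough RAD21 counts to be tested, 172 passed as higher and 0 as lower (edgeR, adjusted over 17011 intervals), where 4.79% of all tested intervals were called, 3.34% as higher and 1.45% as lower. No member was lower at an unadjusted p of 0.05 (0 by edgeR), DESeq2 also called 0 lower, and the fitted log2 fold change was above 0 in 350 of the 361. The median was 1.57, against -0.01 over all tested intervals. Among intervals past both count minimums that gained CTCF alone (eGFP-YAP ratio under 2), 175 of 1489 tested were higher and 0 lower, with a median of 0.83. Their CTCF gain was also smaller, with a median ratio of 2.52 against 4.51 in members, and intervals of like CTCF gain were not compared. The count filter asks for reads in 2 libraries, so a member could enter through its sorbitol libraries alone. Over all 450 members without that filter, both sorbitol RAD21 libraries lay above both vehicle libraries in 346 (76.9%) and below in 9 (2.00%), against 10.8% and 31.5% of all 73975 intervals. Past both count minimums the shares were 18.7% and 28.7%.

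Among groups, RAD21 passed as higher in 52 of 82 tested single-copy start sites, 20 of 56 single-copy intervals elsewhere, 27 of 27 intervals at 45S rRNA genes, 18 of 43 GGAAT-rich intervals, 50 of 109 other multi-copy intervals and 5 of 44 mitochondrial-like intervals. The median log2 fold change was 2.82 at the 45S rRNA genes, 1.94 at single-copy start sites and 0.92 in the mitochondrial-like group. The last count was the least stable, at 37 with GC correction, 23 with no count filter, 18 with DESeq2, 1 with a replicate block, 0 with total scaling, 20 without vehicle replicate 1 and 31 without vehicle replicate 2. GGAAT-rich calls were 33 with GC correction and 11 with DESeq2 or total scaling, and calls in single-copy sequence elsewhere were 34 with GC correction or without vehicle replicate 2. Summed over the 101 single-copy start sites, RAD21 was 3267 and 3300 CPM with vehicle and 8981 and 9876 CPM with sorbitol. Among single-copy start sites past the count minimums that were not members, 205 were higher and 31 lower of 9662 tested, with a median of 0.21.

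H3K27ac divided the members. Of 365 tested, 84 passed as higher and 75 as lower (edgeR, adjusted over 56601 intervals), beside 23.1% called among all tested intervals, 8.59% higher and 14.5% lower. Of the 75 falls, 57 were at single-copy start sites, where 57 of 99 tested were lower and 7 higher, with a median log2 fold change of -0.95. Summed over the 101 start sites, H3K27ac was 4072 and 4078 CPM with vehicle and 1988 and 1975 CPM with sorbitol. Single-copy start sites past the count minimums that were not members had a median of -0.17, with 4692 lower and 1626 higher of 13043 tested. In single-copy sequence elsewhere 14 of 78 were higher and 5 lower, and in other multi-copy sequence 35 of 121 were higher and 12 lower. At the 45S rRNA genes 24 of 27 were higher and 0 lower (0 also at an unadjusted p of 0.05 and by DESeq2), with a median of 1.44. GGAAT-rich intervals carried little H3K27ac, with 6 of 56 testable and 3 of those higher, and in the mitochondrial-like group 1 was higher and 1 lower of 34. Without filtering, both sorbitol H3K27ac libraries lay above both vehicle libraries in 218 of the 450 members (48.4%) and below in 88 (19.6%), against 36.9% and 21.0% of all 73975 intervals. Past both count minimums the shares were 34.9% and 37.3%. In the 101 single-copy start sites that were members, the sorbitol libraries lay below in 61 and above in 20. DESeq2 gave fewer calls of a rise: 13 at the 45S rRNA genes, 17 in other multi-copy sequence and 7 in single-copy sequence elsewhere (22 there with total scaling). Without sorbitol replicate 2 the first 2 of these counts were 13 and 20.

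RAD21 and H3K27ac thus changed together at ribosomal genes and in opposite directions at many start sites. Among 301 members tested for both, RAD21 rose with a fall in H3K27ac at 49, of which 39 were single-copy start sites, and both rose at 47, of which 24 were at 45S rRNA genes and 8 were other multi-copy members tied to ribosomal DNA. In a single edgeR model of both targets, the RAD21 response exceeded the H3K27ac response at 144 of 447 members and fell below it at 3, beside 7.53% of 56925 intervals called, 4.06% above and 3.47% below. Of 18657 tested intervals past both count minimums, 10.9% were above and 3.83% below. Where CTCF alone gained (eGFP-YAP ratio under 2), 639 of 2020 were above (31.6%) and 7 below. The median difference there was 0.98, against 0.97 in members, so with all groups pooled the excess was not larger in intervals gaining both. The pooled sets differed in make-up, however. Of the intervals gaining CTCF alone, 76.3% lay within 1 kb of a start site and 86.1% were single-copy, against 37.3% and 42.4% of members. Intervals gaining CTCF alone were not split by group, so a like-for-like difference is not given. At the 45S rRNA genes 10 of 27 were called above, 4 to 16 when 1 library was left out, and the mitochondrial-like count of 12 was 0 without any 1 of the H3K27ac libraries. The excess was called at 66 of 100 single-copy start sites (median difference in log2 fold change 2.57), against 1510 of 13047 single-copy start sites past the count minimums that were not members (median 0.19).

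**Figure D5:**
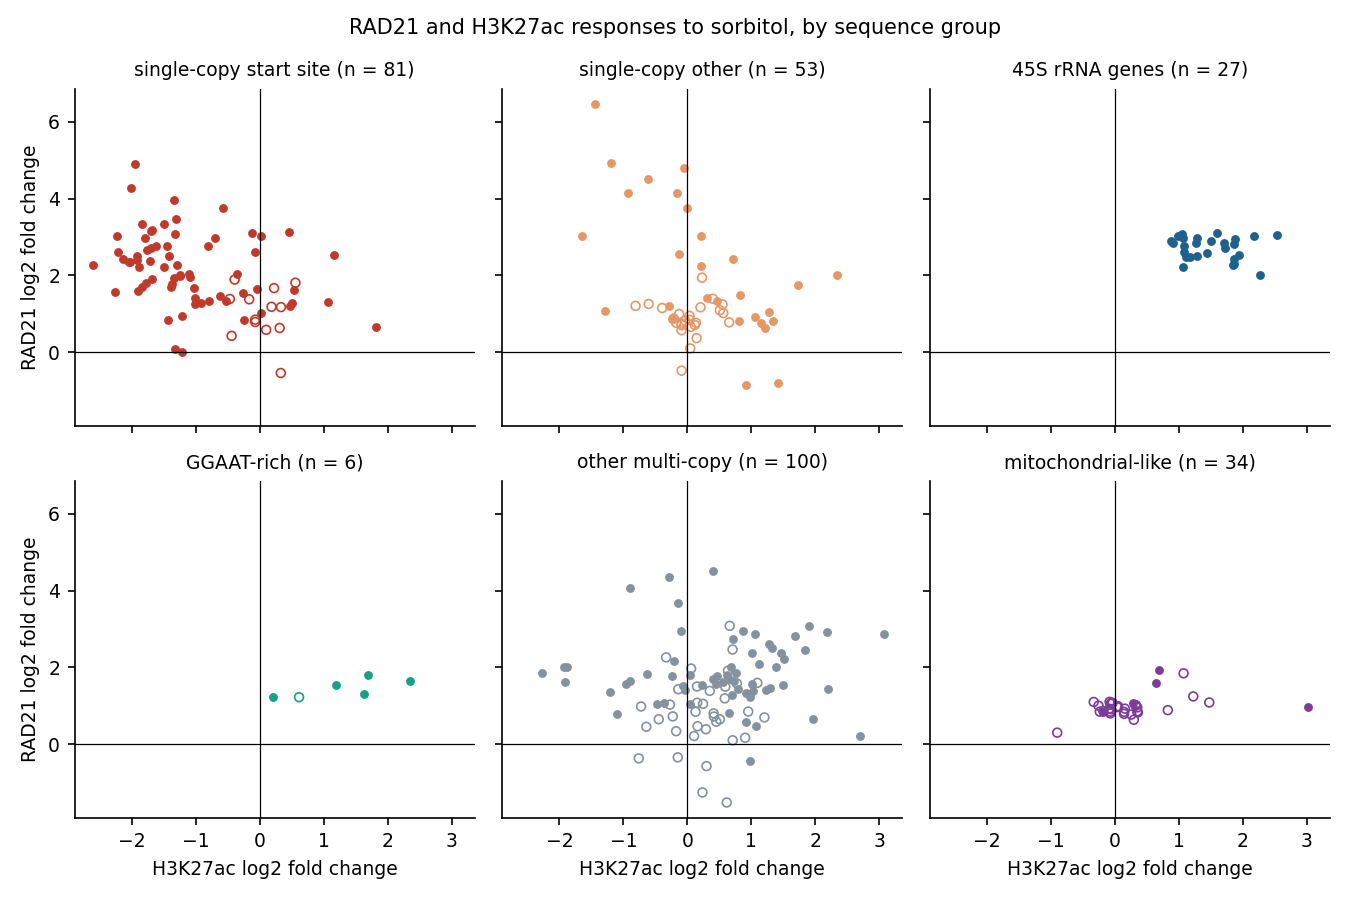
The scatter of the 2 measures that the rule did not use plots the H3K27ac log2 fold change (x) against the RAD21 log2 fold change (y) of the 301 members tested for both, in 1 panel per group, with filled points where either measure passed the test and open points where neither did. Single-copy start sites lie mostly in the upper left, with RAD21 higher and H3K27ac lower, and the 27 intervals at 45S rRNA genes all lie in the upper right.

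The 5 largest H3K27ac falls were at HEXIM1, H2AC19, INTS6, NRARP and POLR2A. HEXIM1, an inhibitor of the elongation kinase P-TEFb, had H3K27ac values of 82.8 and 83.8 CPM with vehicle and 19.2 and 10.5 CPM with sorbitol at the start site shown above. That was a log2 fold change of -2.61 ± 0.143 (edgeR adjusted p = 4.27e-14), while RAD21 there went from 46.2 and 69.7 CPM to 265 and 198 CPM, a rise of 2.26 (adjusted p = 0.00158). The start site of POLR2A, the largest subunit of RNA polymerase II, fell by 2.24 in H3K27ac (adjusted p = 3.11e-14) and rose by 3.03 in RAD21 (adjusted p = 0.000173). INTS6, a subunit of the Integrator complex, which processes small nuclear RNAs, fell by 2.27 (adjusted p = 1.15e-20), and NRARP, a regulator of Notch signalling, fell by 2.25 (adjusted p = 6.99e-05).

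The MARCKSL1 and ACTG1 start sites were picked for description after their values were seen. At MARCKSL1, an actin-regulating gene with the GC boxes printed above, CTCF was 32.9 and 36.4 CPM with vehicle against 377 and 415 CPM with sorbitol, and eGFP-YAP 45.4 and 50.2 CPM against 280 and 206 CPM. RAD21 rose by 3.17 (adjusted p = 0.000173) and H3K27ac fell by 1.68 (adjusted p = 1.95e-14). ACTG1, which encodes cytoplasmic gamma-actin, held 3 nearby members, and the one 12531 bp from its start site had the largest ratios of the 3, 24.9 for CTCF and 5.80 for eGFP-YAP.

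In gene lists chosen with earlier results known, 5 of 30 immediate early genes with an interval past both count minimums had a member, namely FOSB, JUND, EGR1, IER3 and GADD45B. A gene counted if a member lay inside it or within 1 kb of its start sites. By interval, 7 of this list's 58 past both count minimums were members, beside 2.41% of all such intervals. The share of all genes with a member was not counted. The 7 member intervals of the immediate early genes were higher in RAD21 in 7 of 7 (median log2 fold change 2.99) and lower in H3K27ac in 6 of 7 (median -1.39). Of 49 replication-dependent histone genes, which supply histones in S phase and exist as near-identical copies, 10 had a member. Their 7 intervals, of 48 past both count minimums, were lower in H3K27ac in 7 of 7 (median -1.92), and RAD21 passed as higher in 5 of 6 tested (median 1.93). At H2AC19 H3K27ac went from 75.6 and 72.6 CPM to 16.9 and 17.1 CPM, a log2 fold change of -2.27 (edgeR adjusted p = 6.45e-18).

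Other lists had few members or none. BBC3, a pro-apoptotic p53 target, was the member gene among 12 p53 targets, RPL3L among 86 ribosomal protein genes, and ZNF703, ZNF723 and ZNF385A among 311 zinc finger genes. By interval these were 2 of 19, 1 of 107 and 3 of 373 past both count minimums, beside 2.41% of all such intervals. ZNF703 fell by 1.38 in H3K27ac, while the fitted H3K27ac changes at ZNF723 (0.12, edgeR adjusted p = 0.786) and ZNF385A (-0.08, adjusted p = 0.756) did not pass the test. Both BBC3 intervals were lower in H3K27ac, and 1 of the 2 was higher in RAD21. Under the counting rule given above, with its limit of 1 kb, 6 lists had no member. They held 18 YAP target genes, 13 heat shock and chaperone genes and 10 osmotic response genes with an interval past both count minimums. The others held 12 integrated stress response genes, 9 MAP kinase phosphatases and 2 nuclear body RNAs. In this order the lists had 25, 19, 13, 15, 14 and 3 such intervals. Beside a share of 2.41%, these are too few to tell whether members were rarer there. Members farther from these genes were not counted. An example is the member at 6:1387954-1388433, named for the YAP target gene FOXF2, with ratios of 2.94 for CTCF and 2.07 for eGFP-YAP.

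At the 45S rRNA genes, transcribed by RNA polymerase I in the nucleolus, the 27 members were spread as 10 over RNA45SN1, 9 over RNA45SN2 and 8 over RNA45SN3. Their CTCF ratios ran from 3.62 to 16.1 and their eGFP-YAP ratios from 3.57 to 6.57. Summed over the 27, RAD21 was 2789 and 3130 CPM with vehicle and 15517 and 14690 CPM with sorbitol. H3K27ac summed to 134 and 131 CPM with vehicle and 438 and 516 CPM with sorbitol, a low level that rose in both libraries. The largest H3K27ac rise there, at 21:8433947-8434802, was 2.54 on the log2 scale (edgeR adjusted p = 1.65e-10). All 27 consisted wholly of multi-copy words, so the 3 genes may share the same reads. The 9 other multi-copy members that shared these words had median ratios of 10.4 for CTCF, 4.79 for eGFP-YAP, 6.00 for RAD21 and 2.88 for H3K27ac. RAD21 passed as higher in 9 of the 9 and H3K27ac in 6 of 8 tested.

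GGAAT repeats are the unit of some human satellite DNA near centromeres. The 56 GGAAT-rich members, with 33.5 to 156 units per kb, lay on 9 chromosomes with 16 on chromosome 4, 12 on chromosome 1 and 9 on chromosome 16. Their median ratios were 6.19 for CTCF, 3.24 for eGFP-YAP and 2.65 for RAD21. Summed eGFP-YAP was 2787 and 2974 CPM with vehicle and 10833 and 9276 CPM with sorbitol. GGAATG, a TEAD core motif that overlaps the repeat unit, lay within the 400 bases around the midpoint of 94.6% of them, so the motif count restates the repeat.

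The 44 mitochondrial-like members were nuclear stretches with a median identity of 95.3% to the mitochondrial genome. Of these, 15 were named for a mitochondrial pseudogene, as the gene overlapped or the gene with the nearest start site. For CTCF, eGFP-YAP and RAD21 the 44 held most of the members' counts. Their summed eGFP-YAP was 91070 and 98443 CPM with vehicle and 236327 and 286201 CPM with sorbitol. Reads on the mitochondrial chromosome itself, per count on the 73975 intervals, changed by a factor of 2.70 in CTCF libraries, 2.58 in eGFP-YAP, 1.57 in RAD21 and 0.958 in H3K27ac libraries. The median ratios of the mitochondrial-like members were 3.14, 2.59, 1.63 and 1.19 for the same targets. The part of mitochondrial reads in these members was not tested.

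Without the 13 members tied to ribosomal DNA, RAD21 passed as higher in 39 of 96 tested other multi-copy members (median log2 fold change 1.43), and H3K27ac passed as higher in 27 and lower in 12 of 109. Among the other multi-copy members, an interval at PERM1, picked after its values were seen, had a CTCF ratio of 57.6, an eGFP-YAP ratio of 4.22 and a RAD21 rise of 4.35 (adjusted p = 0.000137). The largest H3K27ac rise of any member, 3.07 in a TAF4 intron (adjusted p = 3.15e-05), rested on H3K27ac of 0.471 and 0.787 CPM with vehicle and 3.49 and 8.56 CPM with sorbitol. RAD21 in that TAF4 interval was 14.9 and 0 CPM with vehicle and 111 and 0 CPM with sorbitol, present in replicate 1 of each group and at 0 in replicate 2 of each. The next rises were 3.02 in a mitochondrial-like interval near TRBV25-1 (adjusted p = 0.00207), 2.71 near PKP3 (adjusted p = 0.016) and 2.68 in a KDM2B intron (adjusted p = 0.0046). The TRBV25-1 interval was the only rise called in the mitochondrial-like group, where DESeq2 called 0. Near PKP3 the rise rested on 3 vehicle and 29 sorbitol counts, a CPM ratio of 7.60 with an exact 95% interval of 2.35 to 39.0 for counting error.

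By place, 37.3% of members were within 1 kb of a start site. The share was 75.1% of the 18665 intervals past both count minimums and 34.0% of all 73975 intervals. The members' share was thus lower than the first of these and slightly higher than the second. Members lay within 2 Mb of a chromosome sequence end in 23.3% of cases, beside 9.01% past both count minimums and 5.71% of all 73975. They lay within 1 Mb of an assembly gap of 10 kb or more in 43.3%, beside 10.7% and 8.24%. Linking members under 10 kb apart gave 335 loci, of which 48 held 2 or more members and 163 members in all.

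Sequence motifs were counted on both strands in the 400 bases around each midpoint. A CTCF consensus with at most 1 mismatch was present in 3.11% of members, beside 11.3% of intervals past both count minimums and 18.3% of all 73975. It was present in 2.67% of intervals that gained CTCF alone. Among single-copy start sites past both count minimums, 6.93% of members and 6.87% of the others held it. In single-copy sequence elsewhere it was in 0 of 82 members, against 30.3% of the others past both count minimums. TEAD GGAATG was present in 21.6% of members, beside 14.8% of intervals past both count minimums and 18.8% of all 73975. Of the 97 members that held it, 53 were GGAAT-rich, where it restates the repeat. Among single-copy start sites past both count minimums, it was present in 6.93% of members and 13.3% of the others. AP-1 TGANTCA was present in 6.00% and 5.42%, and GC box GGGCGG in 32.9% and 65.4%. The median GC content of members was 58.3%, against 62.8%, and was 66.8% in single-copy start sites. These matches describe letters in a window and do not show binding.

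Facts of the libraries that touch these values are few. Totals over the 73975 intervals ran from 520367 counts in a RAD21 sorbitol library to 8602100 in an H3K27ac sorbitol library. The mitochondrial chromosome took 15.7% and 19.9% of all CTCF counts with vehicle and 32.8% and 33.9% with sorbitol, and 36.5% and 38.1% against 55.4% and 57.8% for eGFP-YAP. Counts on the mitochondrial chromosome are not in the CPM totals, but the mitochondrial-like nuclear intervals are. The 44 mitochondrial-like members alone took 9.11% and 9.84% of the eGFP-YAP total with vehicle and 23.6% and 28.6% with sorbitol, and 2.09% and 2.93% against 7.14% and 7.36% of the CTCF total. With totals over all intervals instead, 126 intervals met the same ratios and count minimums.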

How the data were processed

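CUT&Tag of 16 libraries was analysed from one deposited table of raw read counts per interval. The submitters' processing notes name Trim Galore, FastQC, BWA 0.7.17, SAMtools, Picard, bedtools 2.31.1, MACS2 2.2.6 and hg38, without roles, and how the authors merged peaks, filtered mapping quality or removed duplicates is not given in the sources used here. From these deposited counts, CPM and ratios (0.5 CPM added) were computed as described. RAD21, H3K27ac and their difference in response were tested over all intervals with edgeR 4.0.16 (TMM, filterByExpr with a minimum of 10, glmQLFit; R 4.3.3), Benjamini-Hochberg adjusted at 0.05; DESeq2 1.42.0 was an alternative. Coordinates and start sites are hg38 and GENCODE 44, and blastn 2.17.0 found mitochondrial alignments. In simulated counts at 2-fold, 0.5% of changed intervals were recovered for RAD21 (14645 intervals), 39.5% for H3K27ac (55704) and 2.5% for the difference (54405), so RAD21 calls miss most changes of that size.

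The members, lists and groups were chosen with earlier results of these data known. Named members were the 8 with the largest smaller ratio, the 5 largest rises and falls that passed the test with separate libraries, up to 4 of each list and those next to the threshold. Same-numbered libraries correlated between -0.0086 and 0.0054 in their deviations. Counting noise at low counts also weakens this correlation, so it cannot decide whether the numbers pair the libraries. Confidence intervals cover counting error only.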

Additional observations from a re-analysis of the deposited data

Results flagged for a closer look

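The responses of RAD21 and H3K27ac to the same sorbitol treatment differed at 144 members where RAD21 responded above H3K27ac and at 3 where it responded below, by the interaction term of an edgeR model over both targets. Of the 144, 66 were single-copy start sites and 10 were at 45S rRNA genes. Intervals that gained CTCF with an eGFP-YAP ratio under 2 had nearly the same share above, 31.6%, against 32.2% of tested members. These pooled shares come from unlike mixes, with 76.3% of the former and 37.3% of members within 1 kb of a start site. They were not compared within groups.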

How the results depend on the processing

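Scaling to totals instead of TMM moved the median over all tested intervals from -0.01 to -0.24 for RAD21 and from 0.02 to 0.16 for H3K27ac. Members numbered 793 at a ratio of 1.5, 154 at 3, 799 at a count minimum of 20, 275 at 80, 126 with totals over all intervals and 373 to 439 when 1 library was left out. The median RAD21 change was 1.71 with GC correction, 1.72 with a replicate block and GC correction, 1.34 with total scaling and 1.51 to 1.76 without 1 library; higher calls were 73 in single-copy members (chosen after seeing the data, as are all such values here) and 179 to 226 without 1 library, and lower calls were 0 to 2 without 1 library. H3K27ac higher calls were 41 with DESeq2, 22 in single-copy members and 51 to 76 without 1 library, with 51 without sorbitol replicate 2, and the median was 0.29 with no count filter, 0.31 with total scaling and -0.12 in single-copy members. RAD21 responses below H3K27ac numbered 0 with DESeq2, 6 with GC correction, 6 with block and GC correction, 5 with total scaling and 0 to 6 without 1 library; those above numbered 87 in single-copy members. The median difference was 1.22 with GC correction, 1.18 with block and GC correction, 0.71 with total scaling, 1.52 in single-copy members and 0.95 to 1.14 without 1 library. The share near a start site was 32.2% within 500 bp, 22.9% for protein-coding starts and 52.9% in single-copy members. The log2 ratio of summed H3K27ac was -0.37 with TMM and -0.74 in single-copy members. A replicate block gave 145 higher and 0 lower calls for RAD21, 88 and 76 for H3K27ac, and 142 and 3 for the difference. Signs reversed for RAD21 at TAF4 (-5.68 to 8.13 without 1 library, lowest without sorbitol replicate 1) and near PKP3 (-0.26 with GC correction, -0.42 with block and GC correction, -0.045 with total scaling, -1.90 to 1.11 without 1 library, lowest without sorbitol replicate 1). They also reversed for H3K27ac at EGR1 (0.087 with GC correction, 0.073 with block and GC correction, 0.086 with total scaling, -0.47 to 0.30 without 1 library), ZNF723 (-0.25 with GC correction, -0.24 with block and GC correction, -0.026 to 0.26 without 1 library) and ZNF385A (0.038 with GC correction, 0.038 with block and GC correction, 0.059 with total scaling). The cause was not tested.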
